A study of Mus musculus with 10 samples.

Results

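The interferon-inducible GTPases of the Gbp and Irg families were followed across every RNA-seq library of mouse leukemia cells treated with 4 chromatin inhibitors. The members were taken by name: the guanylate-binding protein genes Gbp2, Gbp3, Gbp5 and Gbp7, and the immunity-related GTPase genes Irgm1, Irgm2, Igtp, Iigp1, Tgtp1 and Ifi47, which make 10 of the 24015 genes counted. At least 1 read was found for 9 of them, and 8 passed the filter on low counts and were tested. Tgtp1 had no read in any library and Iigp1 had too few to test.

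Gbp and Irg proteins are large GTPases that a cell makes in response to interferon-gamma and, less strongly, to type I interferons. They bind GTP, assemble on membranes, and are known for coating and breaking the vacuoles in which intracellular bacteria and parasites live, which exposes the microbes to autophagy proteins and inflammasomes. Irgm1 and Irgm2, the regulatory GMS subclass to which Igtp also belongs, hold the effector GKS subclass (Tgtp1, Iigp1, Ifi47) in an inactive form on the cell's own membranes. In macrophages and other myeloid cells their transcription follows JAK-STAT signalling and IRF1.

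The cells were MAF9 cells, C57BL/6 mouse bone marrow transformed by transduction of the MLL-AF9 fusion oncogene. All libraries came from cultures given interleukin-3 (10 ng/ml) and fetal bovine serum (15% of the medium), with no interferon named among the additions. Cells received for 4 days either the solvent DMSO or 1 inhibitor at its IC50: MM-401, which blocks the contact between MLL1 and WDR5, EPZ5676 against the H3K79 methyltransferase DOT1L, MI-2-2 against the contact between menin and MLL proteins, or iBET against BET bromodomain proteins. Each of the 5 groups had 2 libraries, and the study set the inhibitors side by side to separate the part played by MLL1 itself from that of the fusion protein and its partners. The methods describe the duplicates as biological samples, without saying whether they were separate cultures, clones or animals, and the p-values measure the spread between these libraries. Cells transduced in culture are a model without a host or an infection.

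Library totals ranged from 20394762 to 29473127 counted reads. DMSO replicate 2 stood apart: Uty, Kdm5d, Ddx3y and Eif2s3y of the Y chromosome held 3630 reads there against 0 to 2 in every other library, and Xist, the transcript of the inactive X chromosome, was at 4.76 CPM against 928 to 3050. By these transcripts DMSO replicate 2 held male cells and every other library female cells, so the DMSO libraries came from different donors. In every fit below without DMSO replicate 1, treatment cannot be told apart from this difference of donor and sex. With both DMSO libraries the difference enters the DMSO mean and spread. The DMSO libraries also correlated less with each other (r = 0.942 across genes on log2 CPM) than the pairs of the inhibitor groups (0.983 to 0.992). Counts of calls against DMSO are therefore given with and without DMSO replicate 2, and changes of single genes again wherever leaving out that library changed their call. All 12 progenitor and leukemia markers had reads in every library. Levels below are CPM, the reads of a gene per 1000000 counted reads after scaling by TMM (trimmed mean of M values) factors. Fold changes, their standard errors (SE) and p-values come from the quasi-likelihood test of edgeR, adjusted by the Benjamini-Hochberg method over the 12971 genes tested, and a gene was called at an adjusted p under 0.05.

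Gbp2, Gbp3, Gbp5 and Gbp7 lie on chromosome 3 in the order Gbp5, Gbp7, Gbp3, Gbp2. Irgm1, Tgtp1, Ifi47, Igtp and Irgm2 lie on chromosome 11. The stretches of 250 bases before the annotated start are printed for the members whose levels moved most clearly, together with Igtp, the neighbour that resembles Irgm2, since this is where interferon-activated factors are known to bind. They are RefSeq sequences of build GRCm38.p6, 5′ to 3′ on the strand of the gene, and the capitals mark each match on either strand to a pair of GAAA with any 2 bases between them (a GAAA pair), the core of the interferon-stimulated response element bound by IRF factors, or to TTCNNNGAA, the gamma-activated site.
Gbp5 (chr3:142496684-142496933, forward strand): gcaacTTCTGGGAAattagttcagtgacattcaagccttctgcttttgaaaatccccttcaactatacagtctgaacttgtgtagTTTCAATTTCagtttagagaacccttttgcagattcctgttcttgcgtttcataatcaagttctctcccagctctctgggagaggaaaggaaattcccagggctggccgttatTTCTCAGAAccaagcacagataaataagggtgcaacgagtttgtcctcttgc
Gbp7 (chr3:142530086-142530335, forward strand): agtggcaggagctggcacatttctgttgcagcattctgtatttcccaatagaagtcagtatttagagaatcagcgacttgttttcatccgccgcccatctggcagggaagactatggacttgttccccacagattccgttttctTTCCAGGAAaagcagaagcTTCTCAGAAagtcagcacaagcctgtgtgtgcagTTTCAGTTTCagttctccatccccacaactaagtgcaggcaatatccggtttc
Gbp3 (chr3:142559794-142560043, forward strand): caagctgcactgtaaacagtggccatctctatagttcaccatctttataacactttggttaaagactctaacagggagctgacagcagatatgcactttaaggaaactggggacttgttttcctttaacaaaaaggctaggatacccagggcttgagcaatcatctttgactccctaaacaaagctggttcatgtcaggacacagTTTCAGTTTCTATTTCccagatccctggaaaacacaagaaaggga
Irgm1 (chr11:48871421-48871670, reverse strand): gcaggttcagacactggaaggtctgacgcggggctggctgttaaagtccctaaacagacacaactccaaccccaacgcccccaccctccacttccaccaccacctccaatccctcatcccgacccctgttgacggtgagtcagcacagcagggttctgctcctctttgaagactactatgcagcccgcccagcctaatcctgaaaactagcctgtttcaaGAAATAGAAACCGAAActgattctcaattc
Irgm2 (chr11:58214727-58214976, forward strand): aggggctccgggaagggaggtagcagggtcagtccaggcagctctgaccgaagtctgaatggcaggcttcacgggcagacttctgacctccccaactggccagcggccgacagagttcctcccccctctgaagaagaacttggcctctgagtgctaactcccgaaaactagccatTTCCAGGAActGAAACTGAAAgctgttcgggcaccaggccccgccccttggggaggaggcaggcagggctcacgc
Igtp (chr11:58199306-58199555, forward strand): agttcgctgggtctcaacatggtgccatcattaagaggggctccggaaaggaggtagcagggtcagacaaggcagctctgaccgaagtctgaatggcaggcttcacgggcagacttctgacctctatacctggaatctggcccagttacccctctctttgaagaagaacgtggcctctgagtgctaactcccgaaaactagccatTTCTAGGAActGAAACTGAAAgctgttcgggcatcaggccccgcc
Ifi47 (chr11:49076337-49076586, forward strand): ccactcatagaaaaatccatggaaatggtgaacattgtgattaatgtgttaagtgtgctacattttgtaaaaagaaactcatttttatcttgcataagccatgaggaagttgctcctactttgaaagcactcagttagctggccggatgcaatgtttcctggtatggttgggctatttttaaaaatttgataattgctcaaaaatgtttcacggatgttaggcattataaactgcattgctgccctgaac

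RefSeq windows were found for 9 members, and those of 8 members held a GAAA pair between 250 bases before and 50 after the start, Ifi47 being the exception. Over all 32851 windows of that length 3.44% held it. TTCNNNGAA was found for 5 members (Gbp5, Gbp7, Igtp, Irgm2 and Tgtp1), against 8.30% of all windows. Gbp5 and Gbp7 each carried 2 matches to TTCNNNGAA and 1 GAAA pair, whereas Gbp3 and Irgm1 carried 2 overlapping GAAA pairs and no match to the other motif. Counted from the start, the GAAA pair of Gbp7 began at position -53, the first of Gbp3 at -45 and the first of Irgm1 at -30, while that of Gbp5 began at -165. In Igtp, Irgm2 and Tgtp1 the same arrangement stood near the start, a TTCNNNGAA match followed after 2 bases by a GAAA pair, and the windows of Igtp and Irgm2 were identical at 68.9% of aligned positions, against 53.3% for Gbp5 and Gbp7. A second, later start of Gbp3 had neither motif. These matches are letters in the reference and were not measured as sites in these cells.

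In DMSO, the member transcripts spanned a wide range of levels. Per kilobase of exon, mean CPM was 6.33 for Gbp7, 5.34 for Igtp, 4.85 for Gbp3, 3.34 for Irgm2, 3.14 for Irgm1 and 1.47 for Ifi47, but 0.238 for Gbp5 and 0.177 for Gbp2. Neighbours in this order had overlapping ranges over the DMSO libraries from Gbp7 down to Irgm1, as did Gbp5 and Gbp2, whereas Ifi47 lay below Irgm1 and above Gbp5 in both. With iBET the level of Gbp7 per kilobase was 15.3 CPM, and with MI-2-2 Igtp led at 8.85 and Irgm2 followed at 7.74.

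Tgtp1, an effector Irg also called the T cell-specific GTPase, had 0 reads in all libraries, where 3 reads would correspond to 0.102 to 0.147 CPM. Of its 50-base exonic stretches 81.2% also occur in another gene, 79.4% in its near copy Tgtp2, so reads from the pair could have been discarded or split, and Tgtp2 itself had 0 to 5 reads per library. Iigp1, the effector best known for disrupting the vacuole of Toxoplasma, had 1 and 0 reads with DMSO, 0 and 2 with MM-401, 0 and 1 with EPZ5676, 10 and 4 with MI-2-2, and none with iBET. The 14 reads with MI-2-2 against 1 with DMSO gave a ratio of 12.9 (95% exact interval 1.97 to 546, counting error only). For the tested members at most 11.8% of such stretches were shared, the most in Igtp, which also overlaps Irgm2 by 162 exonic bases on the same strand.

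**Figure D1:**
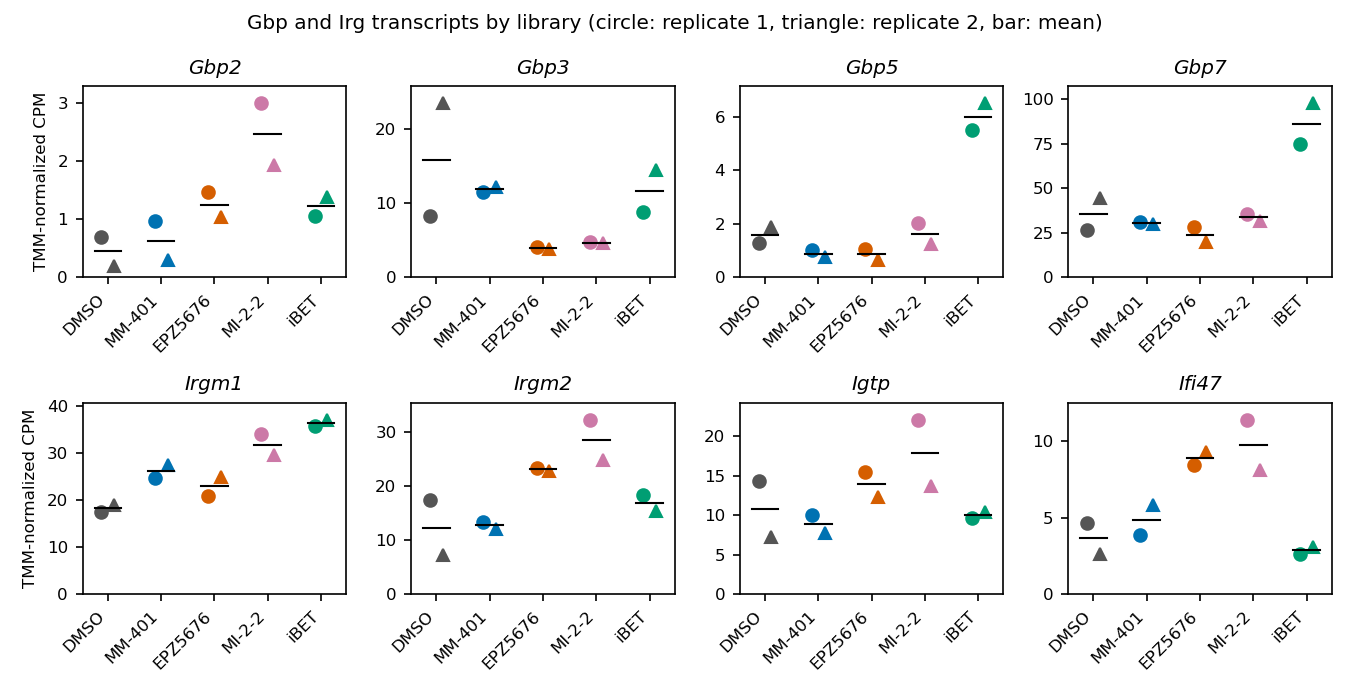
TMM-normalized CPM (linear axis from 0) of the 8 tested members in each library, by treatment, with replicate 1 as a circle, replicate 2 as a triangle and the group mean as a bar. Gbp5 and Gbp7 are highest in both iBET libraries, Irgm2, Igtp and Ifi47 are highest in MI-2-2 replicate 1, and Gbp3 is highest in DMSO replicate 2 at 23.4 CPM.

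Against DMSO, Gbp3 was called lower and Ifi47 higher with both EPZ5676 and MI-2-2, where 38.1% and 41.4% of all genes were called. Gbp2, Irgm1 and Irgm2 were called higher with MI-2-2. With EPZ5676 their log2 changes were also positive but did not pass (1.44, 0.32 and 0.91). No member was called between EPZ5676 and MI-2-2. With iBET Gbp5, Gbp7 and Irgm1 were called higher, where 13.9% of all genes were called. Except for Irgm1 with MI-2-2, each of these calls was lost in at least 1 fit that left out 1 library. With MM-401 no member passed the test. In bulk RNA a change in the share of cells of a type and a change in RNA per cell cannot be told apart.

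Gbp3 is a guanylate-binding protein of the chromosome 3 cluster. Its level was 8.29 and 23.4 CPM with DMSO, 11.5 and 12.2 with MM-401, 4.08 and 3.81 with EPZ5676, 4.73 and 4.64 with MI-2-2, and 8.80 and 14.5 with iBET. Every EPZ5676 and MI-2-2 library was below all other libraries, and DMSO replicate 2 was the highest of the 10. Gbp3 fell 4.01-fold with EPZ5676 (log2 change -2.0, SE 0.466, adjusted p = 0.0123, edgeR) and 3.38-fold with MI-2-2 (log2 change -1.76, SE 0.459, adjusted p = 0.0177, edgeR). When DMSO replicate 2 was left out, the log2 change of Gbp3 was -1.05 with EPZ5676 (adjusted p = 0.0284) and -0.79 with MI-2-2 (adjusted p = 0.0664, edgeR). The Gbp3 calls were also lost without EPZ5676 replicate 1 or 2 (adjusted p = 0.0614 and 0.0763) and without MI-2-2 replicate 1 or 2 (0.0814 and 0.0950, edgeR). With iBET the log2 change of Gbp3 was -0.44 (adjusted p = 0.523, edgeR) and the libraries overlapped those of DMSO.

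Ifi47, an effector Irg also known as IRG-47, was at 4.63 and 2.64 CPM with DMSO, 3.89 and 5.80 with MM-401, 8.44 and 9.32 with EPZ5676, 11.4 and 8.15 with MI-2-2, and 2.61 and 3.10 with iBET. The EPZ5676 and MI-2-2 libraries lay above all others, and the iBET libraries lay within or below the range of DMSO. Ifi47 rose 2.43-fold with EPZ5676 (log2 change 1.28, SE 0.351, adjusted p = 0.0231, edgeR) and 2.68-fold with MI-2-2 (log2 change 1.42, SE 0.351, adjusted p = 0.0144, edgeR). Leaving out DMSO replicate 2 gave Ifi47 a log2 change of 0.96 with EPZ5676 (adjusted p = 0.0592) and 1.11 with MI-2-2 (adjusted p = 0.0362, edgeR). The EPZ5676 call of Ifi47 was also lost without either EPZ5676 library (adjusted p = 0.0647 and 0.0968), and the MI-2-2 call without MI-2-2 replicate 1 (0.0825, edgeR). Of the Ifi47 exons 111 bases overlap the olfactory receptor gene Olfr56 on the same strand.

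With EPZ5676, then, 2 of the 8 tested members were called, 1 in each direction, where 38.1% of all genes were called (18.7% higher and 19.4% lower). The median log2 change was 0.345 over the members and -0.0577 over all genes tested. Gbp3 was the 1 member called without DMSO replicate 2, where 35.5% of all genes were. Without DMSO replicate 1, 4 members were higher (Gbp2, Igtp, Irgm2 and Ifi47) and 2 lower (Gbp3 and Gbp7), where 51.0% of all genes were called. No member was called without EPZ5676 replicate 1 or 2, where 25.5% and 19.7% of all genes were. Irgm2 was at a log2 change of 0.91 (adjusted p = 0.0801, edgeR) with no overlap of the groups, and at 0.98 (adjusted p = 0.0263) with the replicate number as a block.

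With MI-2-2, 5 of 8 members were called, 4 higher and 1 lower, where 41.4% of all genes were called (20.2% higher and 21.2% lower). The median log2 change was 0.763 over the members and -0.0536 over all genes. There were 3 calls without DMSO replicate 2, Irgm1, Irgm2 and Ifi47, where 37.6% of all genes were called. The number of members called was 1 without MI-2-2 replicate 1 and 2 without MI-2-2 replicate 2, where 26.2% and 20.7% of all genes were called.

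Irgm1, the regulatory GTPase whose loss in mice is known to impair survival of infections and blood stem cell function, was at 17.5 and 19.0 CPM with DMSO, 24.6 and 27.5 with MM-401, 20.9 and 24.8 with EPZ5676, 33.9 and 29.6 with MI-2-2, and 35.7 and 37.0 with iBET. All inhibitor libraries were above both DMSO libraries, and the pair of DMSO libraries lay close together. It rose 1.74-fold with MI-2-2 (log2 change 0.80, SE 0.153, adjusted p = 0.0053, edgeR) and 1.99-fold with iBET (log2 change 0.99, SE 0.153, adjusted p = 0.00829, edgeR). The MI-2-2 call of Irgm1 was kept without any 1 DMSO or MI-2-2 library (log2 change 0.70 to 0.90), whereas the iBET call was lost without iBET replicate 1 or 2 (adjusted p = 0.0548 and 0.0676, edgeR). With EPZ5676 the log2 change of Irgm1 was 0.32 (adjusted p = 0.127) and with MM-401 0.51 (adjusted p = 0.328, edgeR).

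Irgm2, its regulatory relative, was at 17.4 and 7.24 CPM with DMSO, 13.4 and 12.1 with MM-401, 23.4 and 22.8 with EPZ5676, 32.3 and 24.8 with MI-2-2, and 18.4 and 15.4 with iBET. DMSO replicate 2 was the lowest of the 10 libraries and both MI-2-2 libraries were the highest. Irgm2 rose 2.31-fold with MI-2-2 (log2 change 1.21, SE 0.36, adjusted p = 0.0292, edgeR), and without DMSO replicate 2 the log2 change was 0.75 (adjusted p = 0.0296). The Irgm2 call was lost without MI-2-2 replicate 1 or 2 (adjusted p = 0.134 and 0.0634), and with scaling to total counts alone (log2 change 1.05, adjusted p = 0.0562, edgeR).

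Igtp, the third regulatory Irg, was at 14.3 and 7.29 CPM with DMSO, 9.98 and 7.77 with MM-401, 15.5 and 12.3 with EPZ5676, 22.1 and 13.7 with MI-2-2, and 9.68 and 10.4 with iBET. The MI-2-2 libraries overlapped those of DMSO. Its log2 change of 0.73 with MI-2-2 did not pass the test (SE 0.355, adjusted p = 0.135, edgeR). It passed with the replicate number as a block (0.75, adjusted p = 0.0429, edgeR). Against DMSO replicate 2 alone, which came from another donor, the log2 change was 1.30. The other log2 changes of Igtp did not pass with both DMSO libraries and no block, 0.37 with EPZ5676, -0.10 with iBET and -0.28 with MM-401.

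Gbp2, a guanylate-binding protein known to gather on the vacuoles of intracellular pathogens, was at 0.701 and 0.192 CPM with DMSO, 0.972 and 0.294 with MM-401, 1.46 and 1.04 with EPZ5676, 2.99 and 1.94 with MI-2-2, and 1.06 and 1.38 with iBET. These levels rest on 4 to 69 reads per library, and DMSO replicate 2 held the fewest. Gbp2 rose 5.35-fold with MI-2-2 (log2 change 2.42, SE 0.701, adjusted p = 0.0264, edgeR). The Gbp2 call was lost without DMSO replicate 2 (log2 change 1.84, adjusted p = 0.0686) and without MI-2-2 replicate 1 or 2 (adjusted p = 0.113 and 0.0607, edgeR), and without DMSO replicate 1 the log2 change was 3.65 (adjusted p = 0.00883). The EPZ5676 and iBET libraries also lay above both DMSO libraries, with log2 changes of 1.44 and 1.41 that did not pass (adjusted p = 0.142 and 0.208, edgeR).

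**Figure D2:**
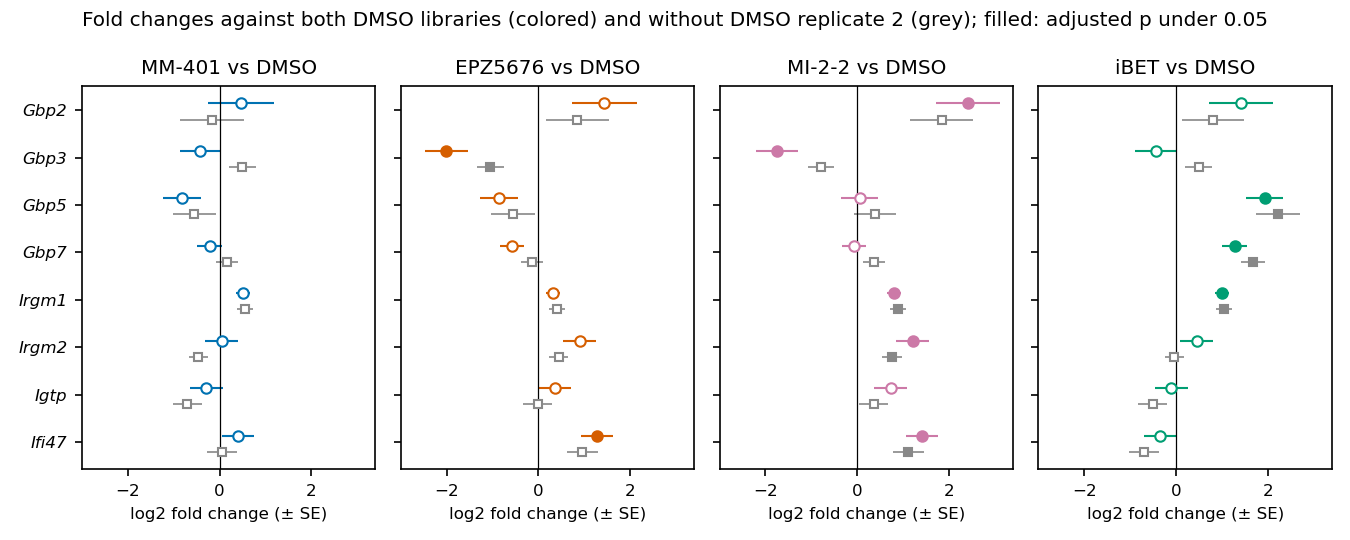
Log2 fold change against DMSO with its SE for the 8 tested members under each inhibitor, with both DMSO libraries (colored circles) and without DMSO replicate 2 (grey squares). Filled symbols had an adjusted p under 0.05 (edgeR), and Gbp3 with EPZ5676 moves from -2.0 to -1.05 when that library is left out.

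With iBET, 3 of 8 members were called, all higher, where 13.9% of all genes were called (6.38% higher and 7.54% lower). The median log2 change was 0.725 over the members and -0.0353 over all genes. Leaving out DMSO replicate 2 also gave 3 calls, where 21.6% of all genes were called. Without DMSO replicate 1, 4 members were higher, Irgm2 being the added one (log2 change 1.23, adjusted p = 0.00737, edgeR), and Gbp3 was lower (-1.0, adjusted p = 0.0322), where 27.9% of all genes were called. Without iBET replicate 1 or 2 no member was called, and 1.96% and 1.12% of all genes were.

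Gbp5, a guanylate-binding protein known to promote assembly of the NLRP3 inflammasome, was at 1.29 and 1.87 CPM with DMSO, 1.01 and 0.756 with MM-401, 1.07 and 0.659 with EPZ5676, 2.04 and 1.24 with MI-2-2, and 5.52 and 6.51 with iBET. Both iBET libraries were above every other library. Gbp5 rose 3.82-fold against DMSO (log2 change 1.93, SE 0.404, adjusted p = 0.0211, edgeR), or by 2.22 on the log2 scale without DMSO replicate 2 (adjusted p = 0.0186). Without iBET replicate 1 or 2 the adjusted p for Gbp5 was 0.0962 and 0.128 (edgeR).

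Gbp7, its neighbour on chromosome 3, was at 26.8 and 44.3 CPM with DMSO, 31.0 and 30.2 with MM-401, 28.0 and 19.8 with EPZ5676, 35.8 and 31.8 with MI-2-2, and 74.5 and 97.5 with iBET. As for Gbp5, the iBET libraries stood above the other 8. The DMSO libraries spanned a range that overlapped those of MM-401, EPZ5676 and MI-2-2, which did not overlap each other. Gbp7 rose 2.42-fold (log2 change 1.27, SE 0.267, adjusted p = 0.0214, edgeR), with a log2 change of 1.68 without DMSO replicate 2 (adjusted p = 0.00655). Without iBET replicate 1 or 2 the adjusted p for Gbp7 was 0.0696 and 0.140 (edgeR). With EPZ5676 and MI-2-2 the log2 changes of Gbp7 were -0.57 and -0.07 (adjusted p = 0.124 and 0.842, edgeR), the former at -0.89 (adjusted p = 0.0145) without DMSO replicate 1.

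With MM-401, 0 of 8 members were called where 0% of all genes were called by edgeR. An unadjusted p under 0.05 (edgeR) was found for 1450 of the 12971 genes. Irgm1, at an unadjusted p of 0.00979 (edgeR), was the 1 member among these 1450. DESeq2 called 297 genes and 0 members. The median log2 change of the members was -0.084. All 10 calls of members against DMSO under the other inhibitors were lost when only the 2 groups compared were fitted (adjusted p = 0.0725 to 0.146, edgeR), where the share of all genes called was 9.34% under EPZ5676, 9.12% under MI-2-2 and 0% under iBET.

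Direct comparisons between inhibitors leave the DMSO levels out of the difference, although the DMSO libraries still enter the estimate of the spread. Between EPZ5676 and MI-2-2 none of the 8 members was called by edgeR, and 0.0154% of all genes were. All 8 had a lower mean with EPZ5676, by log2 differences of -0.98 (SE 0.652) for Gbp2, -0.92 (SE 0.418) for Gbp5 and -0.47 (SE 0.152) for Irgm1, whose unadjusted p of 0.0142 was the 1 under 0.05 (adjusted p = 0.517, edgeR). DESeq2 called 0 members in this comparison.

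Against MM-401, Gbp3 was 3.0-fold lower with EPZ5676 (log2 difference -1.58, adjusted p = 0.0325, edgeR), the 1 member called of 8 where 33.3% of all genes were called (16.6% lower). Irgm2 was 2.24-fold higher with MI-2-2 than with MM-401 (log2 difference 1.16, adjusted p = 0.0382, edgeR), again 1 of 8, where 35.7% of all genes were called (18.0% higher). With scaling to total counts alone no member was called higher there. Gbp2, Gbp3, Igtp and Ifi47 lay just outside the threshold in the latter comparison (adjusted p = 0.0563, 0.052, 0.0584 and 0.0534, edgeR). With the replicate number as a block, 2 members (Gbp3, and Irgm2 with adjusted p = 0.0427) were called between EPZ5676 and MM-401 where 43.4% of all genes were, and 5 (Irgm2 and these other 4) between MI-2-2 and MM-401 where 46.0% were. When both DMSO libraries were removed, a setting chosen after seeing the data, 3 members (Gbp3, Irgm2 and Ifi47) were called between EPZ5676 and MM-401 where 48.8% of all genes were, and 5 (these and Gbp2 and Igtp) between MI-2-2 and MM-401 where 51.3% were. For Gbp3 and Irgm2 respectively the adjusted p then was 0.00184 and 0.00149 (edgeR), whereas both calls were lost without any 1 of the libraries compared.

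Gbp5 was 6.76-fold higher with iBET than with MM-401 (log2 difference 2.76, SE 0.421, adjusted p = 0.00836, edgeR) and Gbp7 2.81-fold higher (log2 difference 1.49, SE 0.269, adjusted p = 0.0138, edgeR). They were 2 of 8 members called, both higher, where 11.4% of all genes were (5.48% higher). The Gbp5 difference stayed under the threshold without iBET replicate 1 (adjusted p = 0.0485) and was lost without iBET replicate 2 (0.0685) or either MM-401 library (0.0659 and 0.0933, edgeR). For Gbp7 the adjusted p without 1 of these libraries was 0.0524 to 0.115, and without both DMSO libraries it was 0.00285 for Gbp7 and 0.00293 for Gbp5 (edgeR). Irgm1 differed by 0.48 on the log2 scale between iBET and MM-401 (adjusted p = 0.0809, edgeR).

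Across the 10 libraries the members fell into unlike profiles. Gbp5 and Gbp7 ran together (Pearson r = 0.960 on log2 CPM), as did Gbp2 with Irgm2 (0.901) and Igtp with Irgm2 (0.890), while Gbp3 ran against Irgm2 (-0.917) and Ifi47 (-0.851). Irgm1 and Ifi47 were unrelated (0.0102). Each value is a description over 10 libraries of 5 treatments that share depth and composition. DMSO replicate 2, from another donor, is among them. It was the highest library for Gbp3 and the lowest for Gbp2, Igtp and Irgm2, and correlations without it were not computed. Among the genes most like the mean standardized profile of the 8 tested members were Hdac5 (r = 0.944), a histone deacetylase, Trafd1 (0.942), a regulator of innate signalling, Cdk5 (0.933), Cdon (0.932) and Shb (0.930), again over 10 libraries.

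Most of the other Gbp and Irg genes that were tested rose with EPZ5676 and MI-2-2. Of all genes, 18.7% rose and 19.4% fell with EPZ5676, 20.2% and 21.2% with MI-2-2, and 6.38% and 7.54% with iBET. Of 22 Gbp and Irg genes listed, 16 were in the count table and 9 were tested. With EPZ5676 5 rose (Gbp6, Gbp8, Gbp9, 9930111J21Rik1 and Irgc1) and none fell, with MI-2-2 6 rose and none fell, with iBET 2 rose (Gbp9 and 9930111J21Rik1) and 1 fell (Gbp11), and with MM-401 none was called. The median log2 change over the tested genes was 2.58 with EPZ5676, 3.22 with MI-2-2, 1.1 with iBET and 0.251 with MM-401. In a setting added after seeing the data, without DMSO replicate 2, 11 were tested and the calls were 4 higher with EPZ5676, 6 higher with MI-2-2, and 2 higher and 1 lower with iBET. With iBET 4 were higher and 1 lower without DMSO replicate 1, and none was called without iBET replicate 1 or 2.

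Gbp9, of the chromosome 5 cluster, was at 0.273 and 0.288 CPM with DMSO, 0.634 and 0.672 with MM-401, 3.83 and 5.37 with EPZ5676, 7.37 and 7.60 with MI-2-2, and 1.19 and 1.03 with iBET. No group overlapped another. Gbp9 rose by a log2 change of 4.01 (SE 0.342, adjusted p = 0.000457) with EPZ5676, 4.72 (SE 0.347, adjusted p = 0.000287) with MI-2-2 and 1.97 (SE 0.341, adjusted p = 0.0117, edgeR) with iBET. The iBET call of Gbp9 was lost without either iBET library (adjusted p = 0.0748 and 0.0627, edgeR).

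Gbp8 of this cluster was at 1.01 and 0.384 CPM with DMSO, 5.05 and 3.77 with EPZ5676, and 8.67 and 8.99 with MI-2-2. Its log2 change was 2.63 with EPZ5676 (adjusted p = 0.00682) and 3.63 with MI-2-2 (adjusted p = 0.002), and it did not pass with iBET (adjusted p = 0.182, edgeR). Both calls of Gbp8 were kept without any 1 of the libraries compared. Gbp4, Gbp6 and Gbp11 were chosen for mention after their values were seen. Gbp4, at 0.545 and 0 CPM with DMSO and 5.98 and 4.49 with MI-2-2, rose with MI-2-2 (log2 change 4.17, adjusted p = 0.012, edgeR), with 14 and 0 reads behind the DMSO levels. Gbp6 rose with MI-2-2 (log2 change 2.45, adjusted p = 0.0203) and with EPZ5676 (1.99, adjusted p = 0.0496, edgeR) on 3 to 27 reads per library of these groups, and the EPZ5676 call was lost without any 1 DMSO or EPZ5676 library. The MI-2-2 call of Gbp6 was lost without DMSO replicate 1 (log2 change 2.12, adjusted p = 0.058) or MI-2-2 replicate 1 (1.82, adjusted p = 0.139, edgeR). Gbp11 had 12 and 4 reads with DMSO and 0 in both iBET libraries, a ratio of 0 with an upper limit of 0.247 (95% exact interval, counting error only), and this call was lost without either iBET library (adjusted p = 0.119 and 0.133, edgeR). Reads of these genes are less certain to be their own: 18.1% of the 50-base exonic stretches of Gbp8, 8.05% of Gbp9, 7.65% of Gbp4, 19.2% of Gbp11 and 49.9% of Gbp6 occur in another gene.

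**Figure D3:**
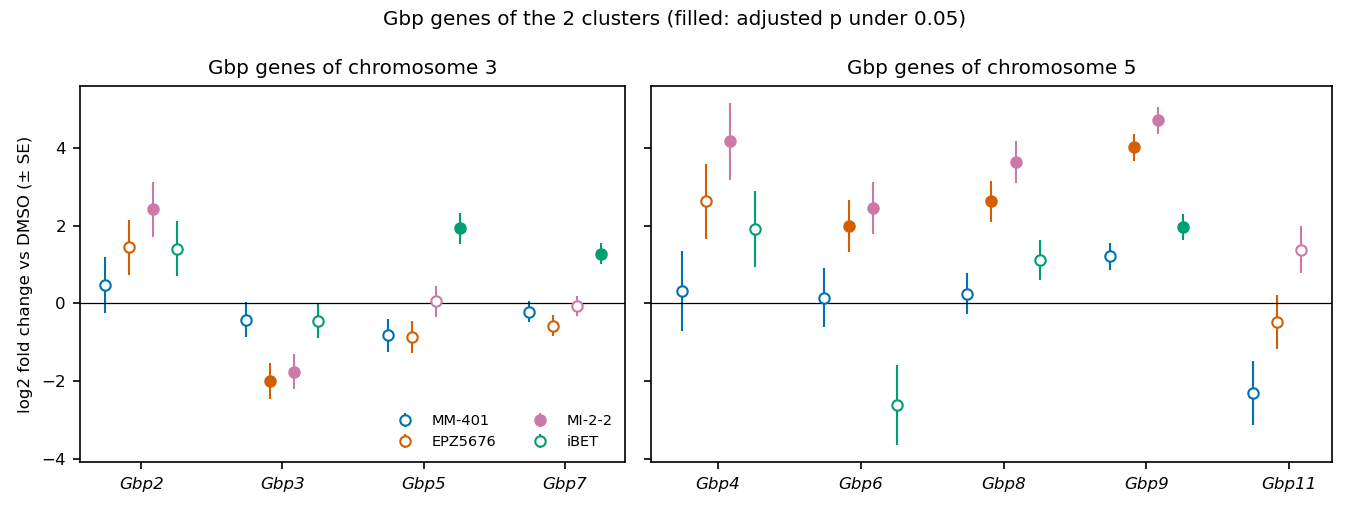
Log2 fold change against DMSO with its SE for the tested Gbp genes of chromosome 3 (left) and chromosome 5 (right), by inhibitor, filled where the adjusted p was under 0.05 (edgeR). With EPZ5676 and MI-2-2 Gbp9 is at 4.01 and 4.72 while Gbp3 is at -2.0 and -1.76, and Gbp11 with iBET, which had no read, is not drawn.

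Among the remaining Irg genes, Irgc1, known for expression in the testis, was at 0.0389 and 0.0959 CPM with DMSO, 0.254 and 0.252 with MM-401, 5.34 and 6.73 with EPZ5676, 1.82 and 4.31 with MI-2-2, and 0.0442 and 0.0383 with iBET. Against the 3 reads in DMSO the ratio for Irgc1 was 93.8 with EPZ5676 (95% exact interval 31.7 to 458) and 49.2 with MI-2-2 (16.5 to 241, counting error only), with adjusted p = 0.000632 and 0.000923 (edgeR). 9930111J21Rik1 rose with EPZ5676 (log2 change 2.58, adjusted p = 0.00242), MI-2-2 (3.22, adjusted p = 0.00109) and iBET (1.69, adjusted p = 0.0294, edgeR), and 82.9% of its stretches occur in another gene, 80.4% in 9930111J21Rik2. Its iBET call was lost without either iBET library (adjusted p = 0.0998 and 0.156, edgeR).

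The ligands that induce these GTPases were near or at the detection limit. Ifng, encoding interferon-gamma, had 0 reads in all 10 libraries, and Ifnb1, encoding interferon-beta, had 1 read in 1 library, at 0.0434 CPM. The 4 tested genes of this list, Il12a, Il15, Il18 and Il27, encode cytokines listed as inducers and no interferon. The ligand counts below are theirs. With EPZ5676 2 rose (Il18 and Il27) and 1 fell (Il12a), where 18.7% of all genes rose and 19.4% fell. With MI-2-2 2 rose (Il18 and Il27), where 20.2% of all genes did. With iBET none was called, where 13.9% of all genes were. Without DMSO replicate 2 the ligand counts were 2 higher and 1 lower with either EPZ5676 or MI-2-2, and 1 lower with iBET, and without DMSO replicate 1 they were 2 higher and 1 lower, 3 higher and 1 lower, and 1 higher. The call of Il12a was lost without DMSO replicate 1 (log2 change -0.52, adjusted p = 0.218) or either EPZ5676 library (adjusted p = 0.0977 and 0.171, edgeR). Il18, encoding a cytokine that drives interferon-gamma release, was at 0.35 and 0.192 CPM with DMSO, 5.48 and 9.56 with EPZ5676 and 11.0 and 17.9 with MI-2-2. Its log2 change was 4.74 with EPZ5676 (adjusted p = 0.000645), 5.68 with MI-2-2 (adjusted p = 0.000456) and -1.68 with iBET (adjusted p = 0.115, edgeR).

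Members of the lists that follow are named beside their small counts after their values were seen. Of all genes, 18.7% were higher and 19.4% lower with EPZ5676, 20.2% and 21.2% with MI-2-2, and 6.38% and 7.54% with iBET. These shares belong beside the list counts taken with both DMSO libraries. List counts without DMSO replicate 2, also those above, belong beside the shares of all genes called in that fit. Those shares are given with the member counts of each inhibitor. Compared with both DMSO libraries, that share was larger with iBET and smaller with EPZ5676 and MI-2-2. Of 10 tested receptor and JAK-STAT genes, 5 rose (Ifngr2, Jak1, Jak2 and Stat3 among them) and 1 fell with EPZ5676, 7 rose and 1 fell with MI-2-2, 6 rose with iBET and none was called with MM-401. Ifngr1, the ligand-binding chain of the interferon-gamma receptor, was the gene that fell: 487 and 610 CPM with DMSO, 223 and 242 with EPZ5676, 288 and 295 with MI-2-2, 518 and 547 with MM-401, and 709 and 694 with iBET. Its log2 change was -1.24 with EPZ5676 (adjusted p = 0.000868) and -0.91 with MI-2-2 (adjusted p = 0.00219), and with iBET 0.35 (adjusted p = 0.12, edgeR) or, without DMSO replicate 2, 0.52 (adjusted p = 0.021). Ifngr2, the signalling chain, rose with EPZ5676, MI-2-2 and iBET (log2 changes of 0.93, 1.04 and 0.96, with adjusted p = 0.00262, 0.00164 and 0.00805, edgeR), and its iBET call was lost without iBET replicate 2 (adjusted p = 0.0681). The kinase Jak2 rose by 1.39, 1.53 and 0.57 on the log2 scale (adjusted p = 0.00063, 0.000533 and 0.0314, edgeR) with EPZ5676, MI-2-2 and iBET. The iBET call of Jak2 was lost without iBET replicate 1 (adjusted p = 0.0921) or replicate 2 (0.185, edgeR). The counts for this list without DMSO replicate 2 were 5 higher and 1 lower, 6 higher and 1 lower, and 6 higher.

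Of 10 tested interferon transcription factors, 6 rose under EPZ5676, 7 under MI-2-2 and 5 under iBET (Irf2, Irf3, Irf5, Irf7 and Irf8), and none fell. The share of all genes that rose was 18.7%, 20.2% and 6.38%, in this order. Irf1, which acts on Gbp and Irg promoters, was at 40.8 and 15.3 CPM with DMSO, 38.4 and 31.6 with MM-401, 76.0 and 53.1 with EPZ5676, 99.3 and 69.4 with MI-2-2, and 68.5 and 49.1 with iBET. It rose with MI-2-2 (log2 change 1.58, adjusted p = 0.021), a call lost without MI-2-2 replicate 1 (adjusted p = 0.103), and was at 1.20 with EPZ5676 (adjusted p = 0.0586) and 1.06 with iBET (adjusted p = 0.132, edgeR). With the replicate number as a block Irf1 passed with EPZ5676 (adjusted p = 0.00512) and iBET (0.0170), as it did without DMSO replicate 1 (0.00223 and 0.00668, edgeR). Irf8, a factor of monocyte and dendritic cell development, was at 21.1 and 61.3 CPM with DMSO against 132 and 242 with iBET, a log2 change of 2.18 (adjusted p = 0.0247, edgeR), a call lost without either iBET library (adjusted p = 0.0595 and 0.146). With MI-2-2 Irf8 was at 39.3 and 52.3 CPM and its log2 change was 0.16 (adjusted p = 0.808), but 1.15 (adjusted p = 0.036, edgeR) without DMSO replicate 2 and -0.42 without DMSO replicate 1. The transcription factor calls without DMSO replicate 2 were 6, 8 and 3 higher under EPZ5676, MI-2-2 and iBET, in this order, with Irf2 no longer called with iBET (log2 change 0.36, adjusted p = 0.0966, edgeR).

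Of 9 tested inhibitors of interferon signalling, 4 rose under EPZ5676 (Socs3, Ptpn1, Ptpn6 and Pias1), 4 under MI-2-2 (Socs3, Ptpn1, Ptpn6 and Usp18) and 3 under iBET (Socs3, Cish and Pias1). The share of all genes that rose was 18.7%, 20.2% and 6.38%, in this order. Socs1, the feedback inhibitor of JAK1 and JAK2, did not pass in any comparison with DMSO (log2 changes of 0.83, 0.94 and 0.67, adjusted p = 0.105, 0.0696 and 0.246 with EPZ5676, MI-2-2 and iBET, edgeR). With the replicate number as a block Socs1 passed with EPZ5676 and MI-2-2 (adjusted p = 0.0155 and 0.0082), the list then having 7, 7 and 4 higher, and it also passed with MI-2-2 without DMSO replicate 1 (0.0384, edgeR). Socs3, its relative, rose by 1.83, 2.07 and 1.81 (adjusted p = 0.0186, 0.0107 and 0.0426, edgeR). Without DMSO replicate 2 the log2 change of Socs3 was 1.42 (adjusted p = 0.0598) with EPZ5676 and 1.37 (adjusted p = 0.0848, edgeR) with iBET. The Socs3 calls were also lost without EPZ5676 replicate 1 (adjusted p = 0.108), MI-2-2 replicate 1 (0.0596) and iBET replicate 1 or 2 (0.165 and 0.154, edgeR). Without DMSO replicate 2 the list had 3 higher and 1 lower with EPZ5676, 2 higher and 1 lower with MI-2-2, and 2 higher with iBET, and Usp18 was no longer called with MI-2-2 (adjusted p = 0.0521, edgeR).

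Other genes of the interferon-gamma response were mixed, with 5 of 20 tested higher (Cxcl10, B2m, Cd74, Samhd1 and Ly6a) and 3 lower (Psmb8, Wars and Serpina3g) with EPZ5676. With MI-2-2 6 were higher and 2 lower (Wars and Serpina3g), and with iBET 4 were higher, B2m and the immunoproteasome genes Psmb8, Psmb9 and Psme1. Calls in either direction were 8 of 20 with EPZ5676 and 8 of 20 with MI-2-2, near the 38.1% and 41.4% of all genes. With iBET the 4 of 20 stood beside 13.9% of all genes. B2m, the light chain of MHC class I, rose in all 3 (log2 changes of 0.97, 0.83 and 0.98, adjusted p = 0.0072, 0.0123 and 0.0187, edgeR), calls lost without MI-2-2 replicate 2 (adjusted p = 0.0706) and without iBET replicate 1 or 2 (0.0769 and 0.121). Wars, a tryptophanyl-tRNA synthetase, fell with EPZ5676 and MI-2-2 (-1.21 and -1.0, adjusted p = 0.00221 and 0.0041, edgeR). Without DMSO replicate 2 this list had 5 higher and 4 lower with EPZ5676, 6 higher and 1 lower with MI-2-2, and 4 higher and 1 lower with iBET, and Serpina3g was no longer called with MI-2-2 (log2 change -0.96, adjusted p = 0.196, edgeR). Of 24 tested antiviral genes of the type I interferon response, 16 rose with EPZ5676 and 19 with MI-2-2 with none lower, and 3 rose (Parp14, Trim30a and Ifi27l2a) and 1 fell (Ifit2) with iBET. Parp14, an ADP-ribosyltransferase of this list, was at 11.8 and 10.5 CPM with DMSO, 50.3 and 44.3 with EPZ5676, 90.3 and 66.2 with MI-2-2, and 24.2 and 27.6 with iBET. Of 19 autophagy and inflammasome partners of the GTPases, 9 rose and 2 fell with EPZ5676, 12 rose and 2 fell with MI-2-2 (Atg12 and Gabarapl1 in both), and 4 rose with iBET (Atg12, Map1lc3b, Sqstm1 and Trim21). Over all genes 18.7%, 20.2% and 6.38% rose with EPZ5676, MI-2-2 and iBET, and 19.4%, 21.2% and 7.54% fell. Without DMSO replicate 2 the antiviral counts were 15, 18 and 5 higher with EPZ5676, MI-2-2 and iBET, and 1 lower with iBET. The partner counts were then 8, 11 and 4 higher, and 2 lower with EPZ5676 and with MI-2-2. With MM-401 no gene of any of these lists was called by edgeR, where 0% of all genes were. An unadjusted p under 0.05 (edgeR) was found for 4 of 24 antiviral genes, 3 of 19 partners, 3 of 9 other Gbp and Irg genes and 1 of 4 ligand or inducer genes. Of all 12971 genes tested 1450 had one, and none did in the receptor, transcription factor, inhibitor and other interferon-gamma response lists. DESeq2 called 2 antiviral genes (Oas1a and Trim30a) and no other gene of these lists, where it called 2.26% of all genes. Without DMSO replicate 1, where 10.2% of all genes were called with MM-401, edgeR called 4 antiviral genes, 1 ligand or inducer, 1 transcription factor, 1 inhibitor and 1 partner higher, and 1 other interferon-gamma response gene in each direction.

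Several list counts moved when 1 library was left out. Without DMSO replicate 1 the counts with iBET were 8 higher for the transcription factors, 8 higher and 2 lower for the other interferon-gamma response genes, 10 higher and 2 lower for the antiviral genes, and 7 higher and 1 lower for the partners. Without iBET replicate 1 the calls were 1 receptor or JAK-STAT gene, 2 antiviral genes and 1 partner higher and 1 antiviral gene lower, and without iBET replicate 2 they were 1 antiviral gene higher and 1 lower, with none in the other lists. With the replicate number as a block iBET gave 9 higher and 3 lower interferon-gamma response genes and 7 higher partners. In that fit 23.8% of all genes were called, against 13.9% in the main fit. The share with iBET was also larger without DMSO replicate 1, and smaller without either iBET library. For EPZ5676 and MI-2-2 the share was smaller without either library of that inhibitor, and for MI-2-2 larger without DMSO replicate 1. Shifts of the list counts in these fits therefore do not by themselves show a change particular to a list. Without DMSO replicate 1 the inhibitors had 7 higher with MI-2-2. With EPZ5676, leaving out replicate 1 or replicate 2 gave 4 and 3 transcription factors, 2 and 1 inhibitors, and 11 and 12 antiviral genes higher, and 2 and 5 other interferon-gamma response genes higher with 2 lower. With MI-2-2, leaving out replicate 1 or replicate 2 gave 1 and 2 inhibitors, 3 and 3 other interferon-gamma response genes, 8 and 9 partners, and 12 and 17 antiviral genes higher, with 1 interferon-gamma response gene and 1 partner lower.

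**Figure D4:**
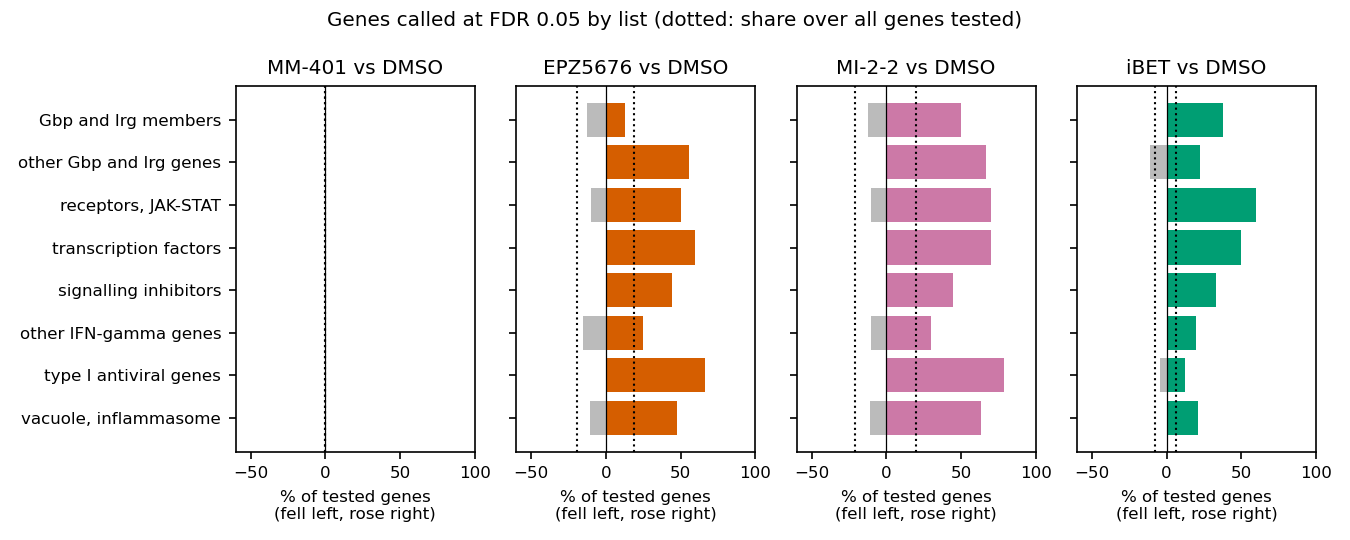
Percent of the tested genes of each list that rose (colored, right) or fell (grey, left) against DMSO at an adjusted p under 0.05 (edgeR), with dotted lines at the shares over all 12971 genes. With MI-2-2, 4 of 8 members rose where 20.2% of all genes did, and with EPZ5676 1 of 8 rose where 18.7% did.

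Summed levels of mature myeloid markers were highest with EPZ5676 and MI-2-2. The summed level of the 8 neutrophil markers in the table, all of them over 1 CPM in every library, was 49000 and 67100 CPM with EPZ5676 and 44100 and 45000 with MI-2-2. It was 3530 and 642 with DMSO, 4480 and 5860 with MM-401, and 1140 and 485 with iBET. The 9 macrophage markers summed to 378 and 484 CPM with EPZ5676 and 426 and 798 with MI-2-2, against 98.4 and 77.1 with DMSO, 138 and 121 with MM-401, and 79.6 and 113 with iBET. The 12 progenitor markers summed to 4690 and 5140 CPM with EPZ5676 and 4700 and 4130 with MI-2-2. They summed to 11300 and 15000 with DMSO, 12300 and 12700 with MM-401, and 8520 and 7680 with iBET. Of the 12, 7 were called lower and 2 higher with EPZ5676, where 19.4% and 18.7% of all genes were. With MI-2-2 7 were lower and 2 higher, where 21.2% and 20.2% were, and with iBET 2 were lower, where 7.54% were. The part of these cell types in the changes of the Gbp and Irg genes was not tested. Natural killer markers summed to 65.9 CPM in DMSO replicate 2 and 0.0884 to 4.85 elsewhere. In DMSO replicate 2, 6 of the 9 had 0 reads and 1 was over 1 CPM, so nearly all of the sum came from 1 gene.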

How the data were processed

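RNA-seq libraries of DMSO-treated and inhibitor-treated MAF9 cells (5 groups of 2) were analysed from the table of read counts per gene that the authors deposited. Per the labels, TruSeq libraries were made from total RNA, and the submitters' processing notes name TopHat2, Subread and DESeq and the build mm9, without versions. The strand setting is not given in the sources used here. Counts were taken as deposited. In R 4.3.3, edgeR 4.0.16 filtered genes with filterByExpr, scaled by TMM and fitted 1 quasi-likelihood model to all 10 libraries, calling genes at 0.05 after Benjamini-Hochberg adjustment in 8 comparisons. The procedure was tested on data simulated from the kind of model that edgeR fits, without a difference of donor. That test does not cover the departure of DMSO replicate 2. Deviations of the replicate 1 libraries from their group means correlated at 0.278 to 0.666 between groups. The labels tie the replicate numbers to no batch, and DMSO replicate 2 differed in donor from the other replicate 2 libraries. The main fit therefore did not pair the libraries. A fit with the number as a block is given where it changes a call. DESeq2 1.42.0, other scalings, no filter, a 2-fold rule with a pseudocount of 0.1 CPM, a replicate block, fits to 2 groups and leaving out each library were alternatives. Intervals cover counting error only and are exact binomial at 95%.

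Promoter windows are RefSeq sequences of GRCm38.p6, read with Python 3.11.15 and aligned with Biopython 1.88, and exonic lengths and shared 50-base stretches come from a GENCODE annotation of GRCm38. The authors' build differs, so no coordinate was carried over. Members and gene lists were chosen with earlier results of these data known. Besides the members, up to 4 called genes per list were named by smallest p, plus fixed defining genes (Ifng, Ifngr1, Ifngr2, Jak1, Jak2, Irf1, Irf8 and Socs1 among them), the 6 genes most correlated with the members' mean profile, and sex-linked genes. Some genes chosen by this rule are not reported here.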

Additional observations from a re-analysis of the deposited data

How the results depend on the processing

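Fits to only the 2 groups compared called 0 members in each comparison of EPZ5676, MI-2-2 or iBET with DMSO, where 9.34%, 9.12% and 0% of all genes were called. The same fits gave 3 calls for EPZ5676 against MM-401 (45.6% of all genes) and 5 for MI-2-2 against MM-401 (51.4%). Removing both DMSO libraries, a choice made after seeing the data, also gave 3 and 5 (48.8% and 51.3%). Between MI-2-2 and MM-401, where edgeR called 1 member and 35.7% of all genes, DESeq2 called 5 (38.4%), DESeq2 size factors 2 (35.3%), no filter 2 (24.6%) and the 2-fold rule 3. Scaling to total counts alone also called 1 (39.3%), but that member was lower with MI-2-2, whereas the main fit called Irgm2 higher. The cause of these differences was not tested. With the replicate number as a block the calls were 2 between EPZ5676 and MM-401 (43.4% of all genes) and 5 between MI-2-2 and MM-401 (46.0%). The block also brought Irgm2 under the threshold with EPZ5676 against DMSO (adjusted p = 0.0263) and Igtp with MI-2-2 against DMSO (adjusted p = 0.0429, edgeR), and changed no other member's call against DMSO, where 47.6%, 50.6% and 23.8% of all genes were called with EPZ5676, MI-2-2 and iBET.

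Without 1 library at a time, the number of members called ranged against DMSO from 0 to 6 (EPZ5676, with 19.7% to 51.0% of all genes), 1 to 6 (MI-2-2, 20.7% to 53.9%) and 0 to 5 (iBET, 1.12% to 27.9%). In the comparisons with MM-401 it was 0 throughout for EPZ5676 (11.6% to 19.6%) and MI-2-2 (12.9% to 19.5%) and 0 to 1 for iBET (1.37% to 2.05%). Where an arm was left with 1 library, that library was taken to vary like the other groups. Without DMSO replicate 1 the DMSO arm was DMSO replicate 2 alone, where treatment cannot be told apart from donor and sex. No called member changed direction. Uncalled log2 changes that turned ranged, for MM-401 against DMSO, from -0.62 to 1.70 for Gbp2, -0.98 to 0.50 for Gbp3, -0.53 to 0.17 for Gbp7, -0.70 to 0.29 for Igtp, -0.46 to 0.82 for Irgm2, -0.21 to 0.03 for Jak2, -0.19 to 0.11 for Ifngr1, -0.24 to 1.19 for Irf1, -0.89 to 0.63 for Irf8 and -0.23 to 0.39 for Socs1. Against DMSO they ranged from -0.01 to 0.94 for Igtp and -0.95 to 0.62 for Irf8 with EPZ5676, from -0.34 to 0.38 for Gbp5, -0.39 to 0.37 for Gbp7 and -0.42 to 1.15 for Irf8 with MI-2-2, and from -1.0 to 0.49 for Gbp3, -0.51 to 0.47 for Igtp, -0.04 to 1.23 for Irgm2 and -0.70 to 0.12 for Ifi47 with iBET. Between EPZ5676 and MI-2-2 they ranged from -0.67 to 0.02 for Igtp and -0.36 to 0.12 for Ifi47, for Gbp5 between EPZ5676 and MM-401 from -0.42 to 0.27, and for Gbp3 between iBET and MM-401 from -0.43 to 0.29. With total-count scaling Gbp5 turned to -0.08 with MI-2-2 against DMSO, and with DESeq2 size factors to 0.00 between EPZ5676 and MM-401. With 2 libraries per group, Gbp2, on 4 to 69 reads per library, had the largest SE of the 8 tested members in all 8 comparisons.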
